A study of Mus musculus with 16 samples.

Results

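A set of 10 genes of natural killer (NK) cells, of the 21959 genes in the deposited count tables, was followed across the treatment groups of a mouse model of colorectal liver metastasis. They were chosen by gene name, with earlier results of these data known. The receptor genes were Ncr1, Klrb1c, Klrk1, Klrd1, Klre1 and Klrg1. Eomes and Tbx21 were the transcription factors, and Nkg7 and Fasl the effector genes. Bulk RNA sequencing had been done on tumor tissue of 16 mice, with 4 mice per group. All were wild-type male C57BL/6 mice, 6 weeks old at the start, and all had been given MC38 colon adenocarcinoma cells by injection into the inferior hemispleen. Control mice received PBS. SB525334, an inhibitor of TGF-β receptor I (ALK5), was given daily by oral gavage at 20 mg/kg in CMC-Na. KN046, an inhibitor of both PD-L1 and CTLA4, was given intraperitoneally at 10 mg/kg 2 times a week, and the combination group received both agents. The model uses a single transplanted cell line in a host with an intact immune system, and each library mixes tumor cells, host immune cells and whatever liver was taken with the nodule.

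NK cells kill without rearranged antigen receptors. They weigh signals from activating receptors (NKp46 from Ncr1, NKG2D from Klrk1, the NK1.1-type receptor from Klrb1c) against inhibitory ones (the CD94 chain from Klrd1, which pairs with NKG2 proteins, and KLRG1), with KLRE1 working in partnership with KLRI proteins. Eomes and T-bet (from Tbx21) are the T-box factors behind NK maturation, Nkg7 is a membrane protein of cytotoxic granules, and Fas ligand (from Fasl) triggers death receptors on target cells. Activated CD8 T cells use most of these genes too, Ncr1 being the most restricted of the receptors. TGF-β is known as a brake on NK activation.

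The libraries held 18368994 to 23877131 counts per mouse, and levels are given as CPM, counts relative to the size of each library after TMM scaling, or as CPM per kilobase of exon where genes are compared. The NK genes were rare: 7 of the 10 passed the filter on low counts (in at least 4 mice, a CPM equal to 10 counts in the median library, 0.495 CPM) and entered the test with 13968 genes, while Ncr1, Klrb1c and Klrg1 did not. Hepatocyte markers differed far more between groups than any NK gene. The summed CPM of 14 hepatocyte markers was 19162 to 23699 in control, 774 to 2677 in SB525334, 11262 to 23902 in KN046 and 74.3 to 95.0 in combination mice. That of 6 epithelial markers, which the MC38 cells and bile ducts could supply, was 123 to 231 in control and 1.26 to 4.97 in combination mice. Control mice 1 and 2, and control mice 3 and 4, resembled each other more than any other mice of a group did (median chi-square per gene 1.25 and 0.956, against 2.82 or more in every other pair). They still differed beyond sampling noise, which does not show that the mice of a pair are independent. They were kept as 4 mice, and every control SD, standard error and p value rests on that choice. The result with each pair merged is given for each member call it changed, and was not kept for single genes outside the 10. Over all genes, merging cut the calls from 55 higher and 1288 lower to 4 and 1023 in SB525334 against control. In combination against control they went from 192 and 1360 to 35 and 1157. For the interaction tested below they went from 242 and 356 to 93 and 205. In bulk tissue, fewer cells of a type and less RNA per cell cannot be told apart.

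Per kilobase of exon, Nkg7 was the most abundant of the 10 in control tumors, at 7.57 ± 0.791 CPM per kilobase (SD, n = 4). Klrd1 followed at 2.09 ± 0.588, then Eomes at 1.22 ± 0.101, Tbx21 at 0.802 ± 0.0955, Fasl at 0.535 ± 0.0841, Klrk1 at 0.367 ± 0.0742, Klre1 at 0.305 ± 0.0758, Ncr1 at 0.216 ± 0.155, Klrg1 at 0.172 ± 0.0853 and Klrb1c at 0.0694 ± 0.0532, on the same scale. The ranges of the control mice were separate for Nkg7 against Klrd1, Eomes against Tbx21 and Tbx21 against Fasl. The other neighbours in this order overlapped. Exon length enters these values, and the long annotated exon union of Klrk1 (7194 bases, against 919 for Nkg7) lowers its place.

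**Figure D1:**
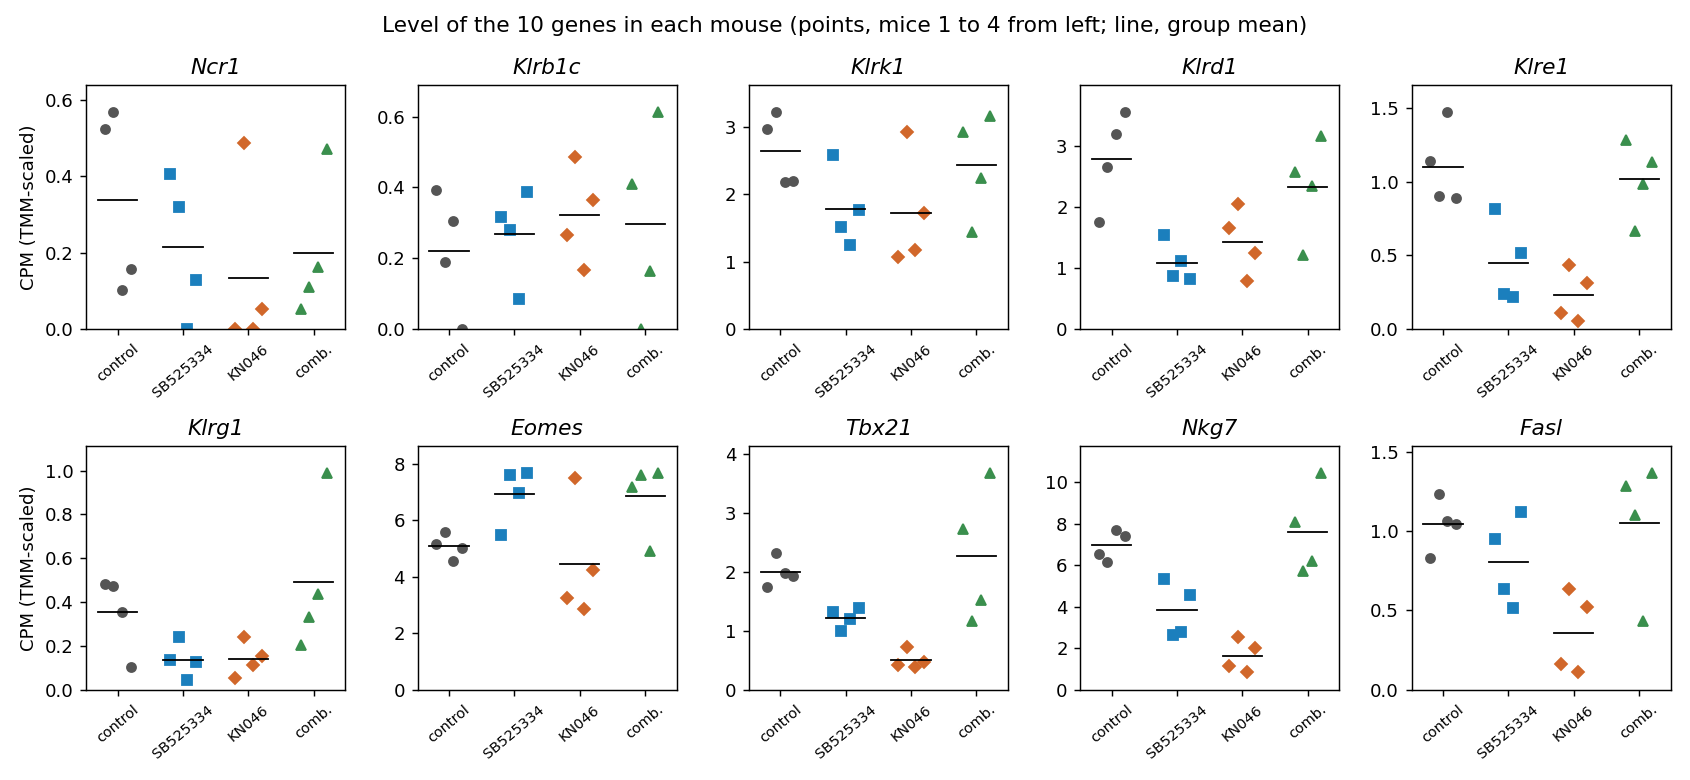
Level of each of the 10 genes (vertical axis, TMM-scaled CPM, starting at 0) in the 16 mice, by treatment group (horizontal axis; comb., combination). Points are mice and lines are group means of 4; Nkg7, Tbx21 and Klre1 are lowest in the KN046 group, and the combination group lies near the control group.

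Nkg7 (ENSMUSG00000004612; GRCm39 chr7:43086497-43087678, plus strand, protein coding, 4 exon blocks) gave the clearest pattern. Its levels were 6.56, 6.15, 7.71 and 7.42 CPM in control mice 1 to 4, and 1.17, 2.53, 0.838 and 2.03 CPM in the KN046 mice. Combination mice were at 8.11, 5.74, 6.22 and 10.5 CPM, and SB525334 mice at 5.33, 2.67, 2.80 and 4.57 CPM. Every KN046 mouse was below every mouse of the other 3 groups, and control and combination mice overlapped.

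Tbx21 (ENSMUSG00000001444; GRCm39 chr11:96988897-97006158, minus strand), which encodes T-bet, followed the same order of groups. It stood at 1.75, 2.32, 1.98 and 1.93 CPM in control mice and at 0.426, 0.729, 0.391 and 0.468 CPM in KN046 mice. The SB525334 mice, at 1.31, 0.995, 1.205 and 1.378 CPM, lay between those groups without overlap. Combination mice spread widely, at 2.72, 1.16, 1.53 and 3.68 CPM.

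Klre1 (ENSMUSG00000050241; GRCm39 chr6:129554868-129562791, plus strand) was scarcer. It was measured at 1.14, 0.899, 1.47 and 0.888 CPM in control, 0.107, 0.438, 0.0559 and 0.312 CPM in KN046, and 1.28, 0.662, 0.983 and 1.13 CPM in combination mice. In SB525334 mice it was at 0.814, 0.239, 0.215 and 0.517 CPM. The KN046 values rest on 1 to 9 counts per mouse, so Klre1 entered the test only through the groups in which it was higher.

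The region around the transcription start of these 3 genes is shown because they moved together in the comparisons below. The sequences are RefSeq promoters of build GRCm38.p6, an older build than that of the counts, from 250 bases before the start to 50 after it. Nkg7 lies at chr7:43436888-43437187 (plus strand), Tbx21 at chr11:97115282-97115581 (minus strand) and the upstream of the 2 Klre1 starts at chr6:129577963-129578262 (plus strand). Capitals mark a T-box core (GGTGTG), a RUNX core (TGTGGT) or an ETS core (AGGAAG), read on either strand.
Nkg7: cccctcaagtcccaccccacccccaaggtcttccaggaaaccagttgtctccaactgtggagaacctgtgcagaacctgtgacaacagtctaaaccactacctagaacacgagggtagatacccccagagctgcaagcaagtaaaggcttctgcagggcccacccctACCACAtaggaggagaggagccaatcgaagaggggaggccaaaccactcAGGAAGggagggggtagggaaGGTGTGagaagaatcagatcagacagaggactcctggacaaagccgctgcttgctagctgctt
Tbx21: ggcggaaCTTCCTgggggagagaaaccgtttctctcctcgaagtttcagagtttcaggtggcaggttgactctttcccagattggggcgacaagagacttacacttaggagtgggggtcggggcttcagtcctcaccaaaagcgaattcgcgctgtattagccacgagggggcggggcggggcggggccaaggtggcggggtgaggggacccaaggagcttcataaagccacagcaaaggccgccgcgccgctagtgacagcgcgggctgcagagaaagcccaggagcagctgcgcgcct
Klre1: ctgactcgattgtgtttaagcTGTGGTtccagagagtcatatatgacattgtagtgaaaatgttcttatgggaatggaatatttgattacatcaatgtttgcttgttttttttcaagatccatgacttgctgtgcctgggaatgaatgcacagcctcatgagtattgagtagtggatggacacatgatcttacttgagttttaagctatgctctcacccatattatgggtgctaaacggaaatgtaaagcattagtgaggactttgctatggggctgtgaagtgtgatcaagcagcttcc
The Nkg7 window held a match to each core, the T-box one starting 13 bases before the start site. In the Tbx21 window there was a single ETS match, and in the Klre1 window a single RUNX match. Across 32851 promoters of the same length, 19% held the T-box core, 16.8% the RUNX core and 35.4% the ETS core. Of the 10 windows found for 8 of the members, 2 held the T-box core (Nkg7 and Fasl), 6 the RUNX core and 5 the ETS core. Windows of 1 gene overlap, so they are not independent. A match is a run of letters and no evidence of binding.

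KN046 alone was compared with control to ask what dual checkpoint blockade changed. Nkg7, Tbx21 and Klre1 fell. Nkg7 was lower by 4.21-fold (log2 difference -2.07, SE 0.33, edgeR adjusted p = 0.0102), Tbx21 by 3.91-fold (-1.97, SE 0.37, adjusted p = 0.0166) and Klre1 by 4.64-fold (-2.21, SE 0.53, adjusted p = 0.0334). So 3 of the 10 passed in the downward direction, against 2.4% of all genes tested, and 0 passed upward, against 1.6%. The KN046 and control mice did not overlap for 4 of them (Klre1, Tbx21, Nkg7 and Fasl), against 6.65% of all genes. At an unadjusted p under 0.05, 5 members passed. The share of all genes at that unadjusted cutoff was not computed for any comparison. This count and the unadjusted counts below therefore have no background beside them. Of the 10 members, 7 were tested in each comparison, and all were chosen with earlier results of these data known. The member counts set against shares of all genes, here and below, therefore describe the set without testing it. In the KN046 mice Klre1 reached 10 counts in 0 mice, Tbx21 in 1 and Fasl in 2, so these genes entered the test through the other groups.

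Fasl (ENSMUSG00000000817; GRCm39 chr1:161608258-161616075, minus strand) did not pass by edgeR. It was at 0.831, 1.23, 1.07 and 1.05 CPM in control and 0.160, 0.632, 0.112 and 0.520 CPM in KN046 mice (log2 difference -1.51, SE 0.49, adjusted p = 0.0826). It passed by DESeq2 (adjusted p = 0.0478) and in 1 of 8 repeats that left out a mouse, the repeat without KN046 mouse 2 (edgeR adjusted p = 0.0262). Its values separate the groups, but on 2 to 13 counts per KN046 mouse. Klrd1 (log2 difference -0.95, adjusted p = 0.127), Klrk1 (-0.62, adjusted p = 0.302) and Eomes (-0.18, adjusted p = 0.706) did not pass either, and their groups overlapped.

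These calls leaned on particular mice. With each similar pair of control mice merged, the adjusted p was 0.107 for Nkg7, 0.171 for Tbx21 and 0.212 for Klre1, and 0 genes of any kind passed in this comparison. Leaving out 1 mouse at a time kept Nkg7 in 8 of 8 repeats, Tbx21 in 6 of 8 and Klre1 in 2 of 8. Only 1 of the 3 remained without KN046 mouse 1 and 1 without KN046 mouse 3. Those repeats called 11 and 31 of all genes lower, against 335 with all mice.

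KN046 mouse 2 was the highest of its group for all 10 genes, including Ncr1, which was at 0.486 CPM there (10 counts) and at 0 to 1 count in the other 3 KN046 mice. Eomes (ENSMUSG00000032446; GRCm39 chr9:118307280-118315200, plus strand) showed the same mouse apart, with 3.25, 7.49, 2.85 and 4.26 CPM across KN046 mice 1 to 4. Its control values were tight, at 5.16, 5.59, 4.56 and 5.02 CPM. Eomes shares 622 exon bases with 2 lncRNA genes on the opposite strand, Gm33408 and Gm33460, which the count tables do not list. The strand setting of the counts is not given, so its level is less certain. The summed T cell markers, 15.99, 27.1, 11.1 and 22.2 CPM in those 4 KN046 mice, were also highest in mouse 2.

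T cell markers moved with these genes. Of 13 T cell markers tested (Cd3e, Cd3d, Cd8a, Cd4, Lck and others), 7 fell and 0 rose in KN046 against control, with a median log2 difference of -1.42, and their summed level was 47.3 to 60.7 CPM in control and 11.1 to 27.1 CPM in KN046 mice. No T cell marker was at 0 in all mice. Ptprc, the pan-leukocyte gene, was at 63.9 ± 26.4 CPM in control and 31.4 ± 13.4 CPM in KN046 mice (SD, n = 4). Of 14 hepatocyte markers, 0 passed here (median log2 difference -0.34). The part of T cell number in the fall of Nkg7, Tbx21 and Klre1 was not tested.

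As a share of the summed T cell marker CPM, Nkg7 was 10.1 to 15.7% in control and 7.33 to 9.32% in KN046 mice. Tbx21 overlapped on that scale, at 3.03 to 4.09% and 2.11 to 3.52%, as did Klre1, at 1.48 to 2.99% and 0.503 to 1.61%. Eomes went the other way, from 8.95 to 10.6% in control to 19.2 to 27.6% in KN046 mice, and Klrk1 from 4.43 to 5.30% to 6.67 to 10.8%. So did Klrb1c, from 0 to 0.683% to 1.51 to 1.79%, on 3 to 10 counts per KN046 mouse. The members not named here overlapped. Eomes was above control in SB525334 mice too, at 11.5 to 25.3%. These ratios were formed after the values were seen and are given without a test.

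**Figure D2:**
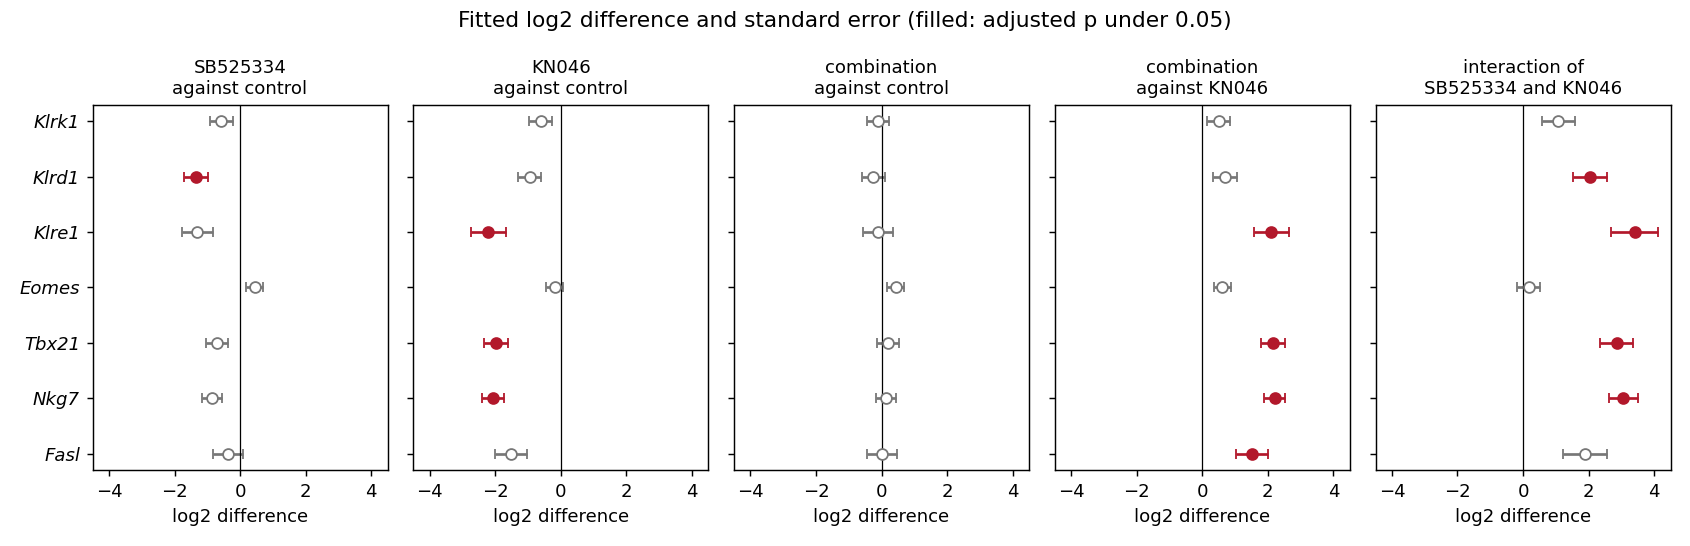
Fitted log2 difference (horizontal axis) of the 7 tested genes in 5 comparisons; bars are 1 standard error, and filled symbols have an edgeR adjusted p under 0.05. Nkg7, Tbx21 and Klre1 are filled to the left of 0 in KN046 against control and to the right in combination against KN046.

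The combination was compared with KN046 to ask what adding the TGF-β receptor inhibitor changed. Nkg7, Tbx21, Klre1 and Fasl rose. Nkg7 was higher by 4.62-fold (log2 difference 2.21, SE 0.33, adjusted p = 6.8e-05), Tbx21 by 4.46-fold (2.16, SE 0.37, adjusted p = 0.000327), Klre1 by 4.29-fold (2.10, SE 0.53, adjusted p = 0.0092) and Fasl by 2.88-fold (1.53, SE 0.49, adjusted p = 0.0322). Thus 4 of 10 passed upward, against 9.89% of all genes tested, and 0 downward, against 14.5%. In all, 5 had an unadjusted p under 0.05. The mice of both groups did not overlap for Klre1, Tbx21 and Nkg7, 3 genes, against 7.9% of all genes higher in that way.

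Nkg7 and Tbx21 passed under every alternative tried, and Klre1 under each that tested it, the filter of a mean of 1 CPM leaving it out. These 3 genes also passed in 8 of 8 repeats that left out a mouse. Klre1 (1 to 9 counts per KN046 mouse), Tbx21 (7 to 15) and Fasl (2 to 13) entered the test through the other groups. The repeats used the same filter, so they do not address that limit. Fasl, at 1.28, 1.10, 0.437 and 1.37 CPM in the combination mice, passed in 3 of 8 such repeats (highest adjusted p 0.0936) and did not pass with only the groups compared (adjusted p = 0.0969). Eomes, at 7.19, 7.61, 4.91 and 7.68 CPM in combination mice, overlapped with KN046 and did not pass (log2 difference 0.61, adjusted p = 0.0905). Nor did Klrd1 (0.69, adjusted p = 0.163) or Klrk1 (0.50, adjusted p = 0.303).

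T cell markers moved here too, 12 of 13 rising (median log2 difference 1.72) to a summed 40.8 to 90.5 CPM in combination mice, and their part was not tested. Combination mouse 4, with the highest T cell sum, was also the highest of its group for 9 of the 10 genes. All 14 hepatocyte markers and all 5 Kupffer cell markers fell in the same comparison, so these 2 groups of tumors also differed in liver content, and the part of that difference was not tested. As a share of T cell marker CPM, Nkg7 in combination mice (10.6 to 14.1%) lay within the control range.

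SB525334 alone was compared with control to ask what TGF-β receptor inhibition did without checkpoint blockade. One gene fell, Klrd1, the CD94 gene (ENSMUSG00000030165; GRCm39 chr6:129568677-129575738, plus strand). It was at 1.75, 2.65, 3.20 and 3.55 CPM in control and 1.54, 0.876, 1.119 and 0.818 CPM in SB525334 mice, which do not overlap. The difference was 2.55-fold (log2 difference -1.35, SE 0.36, adjusted p = 0.0196). In KN046 and combination mice Klrd1 was at 1.65, 2.04, 0.782 and 1.25 CPM and at 2.57, 1.21, 2.35 and 3.16 CPM.

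The count was 1 of 10 lower (1 of the 7 tested), against 9.22% of all genes tested, and 0 higher, against 0.394%. A single call does not set the members apart from the background. Groups did not overlap downward for 4 members (Klrd1, Klre1, Tbx21 and Nkg7), against 13.3% of all genes, and 3 had an unadjusted p under 0.05. Neither Klre1 (log2 difference -1.30, adjusted p = 0.120), Nkg7 (-0.86, adjusted p = 0.101) nor Tbx21 (-0.71, adjusted p = 0.269) passed. Eomes, at 5.47, 7.60, 6.97 and 7.67 CPM in SB525334 mice, had the only positive difference (0.45, adjusted p = 0.389), while Klrk1 (-0.58, adjusted p = 0.419) and Fasl (-0.37, adjusted p = 0.753) were below 0. The call on Klrd1 was lost with the similar control pairs merged (adjusted p = 0.0791) and held in 3 of 8 repeats that left out a mouse. Summed T cell markers were 28.6 to 47.4 CPM in SB525334 mice, with 0 of 13 markers passing, and all 14 hepatocyte markers fell (median log2 difference -3.50). The part of either was not tested.

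In the combination against control, 0 of 10 passed in either direction by edgeR, against 1.37% of all genes higher and 9.74% lower, and 0 members had an unadjusted p under 0.05. DESeq2 also called 0. Fitted log2 differences were 0.14 (SE 0.30) for Nkg7, 0.19 (SE 0.33) for Tbx21, -0.11 (SE 0.46) for Klre1 and 0.01 (SE 0.45) for Fasl. Eomes was at 0.43 (SE 0.26), Klrd1 at -0.26 (SE 0.35) and Klrk1 at -0.11 (SE 0.35). Group means were 7.63 ± 2.15 against 6.96 ± 0.727 CPM for Nkg7 and 2.27 ± 1.15 against 2.00 ± 0.238 CPM for Tbx21 (SD, n = 4). These standard errors do not show that the groups were equal. All comparisons with control share its 4 mice.

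Against SB525334, the combination again gave 0 of 10 by edgeR (background 0.544% higher and 3.03% lower), with 4 at an unadjusted p under 0.05: Klrd1 (log2 difference 1.10), Klre1 (1.19), Nkg7 (0.99) and Tbx21 (0.90). The lowest adjusted p was 0.106, for Nkg7. DESeq2 called 1 of the 10, against 137 higher and 520 lower of 13968 genes. SB525334 against KN046 gave 2 higher (background 6.48%) and 0 lower (13.5%), with 4 at an unadjusted p under 0.05. These were Tbx21 (1.26, SE 0.37, adjusted p = 0.0247), called in 4 of 8 repeats that left out a mouse, and Nkg7 (1.21, SE 0.32, adjusted p = 0.0149), called in 7 of 8. Without SB525334 mouse 1, 0 of 10 passed in that comparison, and without KN046 mouse 2, 4 did. Those repeats called 455 and 1422 of all genes higher, against 905 with all mice. Of the 13 T cell markers, 5 rose in SB525334 against KN046, while 14 of 14 hepatocyte and 5 of 5 Kupffer cell markers fell. The part of these markers was not tested.

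Whether SB525334 acted differently with and without KN046 was tested as the interaction, the combination minus KN046 difference less the SB525334 minus control difference. It was positive for Nkg7 (3.07, SE 0.45, adjusted p = 0.000508), Tbx21 (2.86, SE 0.50, adjusted p = 0.00237), Klre1 (3.40, SE 0.72, adjusted p = 0.0100) and Klrd1 (2.05, SE 0.51, adjusted p = 0.0281). That made 4 of 10 higher, against 1.73% of all genes, and 0 lower, against 2.55%. In all, 6 had an unadjusted p under 0.05. Nkg7, Tbx21 and Klre1 passed in 16 of 16 repeats that left out a mouse and with the control pairs merged. Klre1 and Tbx21, scarce in KN046 mice, entered this test through the other groups, and the repeats used the same filter. Klrd1 passed in 6 of 16 and not with the pairs merged (adjusted p = 0.0829). Fasl (1.90, adjusted p = 0.137), Klrk1 (1.08, adjusted p = 0.279) and Eomes (0.17, SE 0.37, adjusted p = 0.854) did not pass. Of the 13 T cell markers, 10 had a positive interaction that passed, with a median of 2.2001. So did 4 of 7 neutrophil markers (median 5.08), and 14 of 14 hepatocyte markers had a negative one (median -6.14). The part of these markers was not tested.

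Ncr1, Klrb1c and Klrg1 fell below the filter of the main fit. They were compared by an exact permutation test on CPM, in the comparisons with control and in combination against KN046. Ncr1 (ENSMUSG00000062524; GRCm39 chr7:4340710-4348171, plus strand), the receptor most restricted to NK cells, summed to 76 counts over all 16 mice. Its levels were 0.525, 0.568, 0.101 and 0.157 CPM in control, 0.407, 0.318, 0 and 0.129 CPM in SB525334, 0, 0.486, 0 and 0.0520 CPM in KN046, and 0.0513, 0.110, 0.164 and 0.471 CPM in combination mice. A count of 0 allows a level of up to 0.129 to 0.168 CPM in the 3 mice at 0 (3 counts, counting error only). The groups overlapped, and the higher controls were the similar pair 1 and 2.

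Klrb1c (ENSMUSG00000030325; GRCm39 chr6:128755448-128766178, minus strand) ran from 0 to 13 counts, with group means of 0.222 to 0.321 CPM in no order shared with Nkg7. It shares 413 exon bases with Gm44511 on the same strand, so its reads may be split or lost. Klrg1 (ENSMUSG00000030114; GRCm39 chr6:122246981-122259914, minus strand), a late inhibitory receptor, was at 0.481, 0.473, 0.355 and 0.105 CPM in control and 0.0533, 0.243, 0.112 and 0.156 CPM in KN046 mice. In SB525334 mice it was at 0.136, 0.239, 0.0430 and 0.129 CPM, and in combination mice at 0.205, 0.331, 0.437 and 0.990 CPM. The lowest of the 12 two-sided exact permutation p values was 0.0571, for Klrg1 in combination against KN046 (adjusted p = 0.457 over the 12). With 4 against 4 mice the test cannot give less than 0.0286. In edgeR without the filter, Klrg1 was higher in combination against KN046 (log2 difference 1.76, adjusted p = 0.0760). Its interaction there was 3.08 (edgeR adjusted p = 0.0914). Ncr1, Klrb1c and Klrg1 passed in no comparison of that fit.

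Klrk1 (ENSMUSG00000030149; GRCm39 chr6:129587286-129600827, minus strand), the NKG2D gene, passed in no comparison. Control mice were at 2.97, 3.22, 2.18 and 2.195 CPM, again split as the similar pairs, and SB525334 mice at 2.58, 1.51, 1.25 and 1.77 CPM. KN046 mice were at 1.07, 2.92, 1.17 and 1.71 CPM and combination mice at 2.93, 1.43, 2.24 and 3.16 CPM. All 4 groups overlapped.

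**Figure D3:**
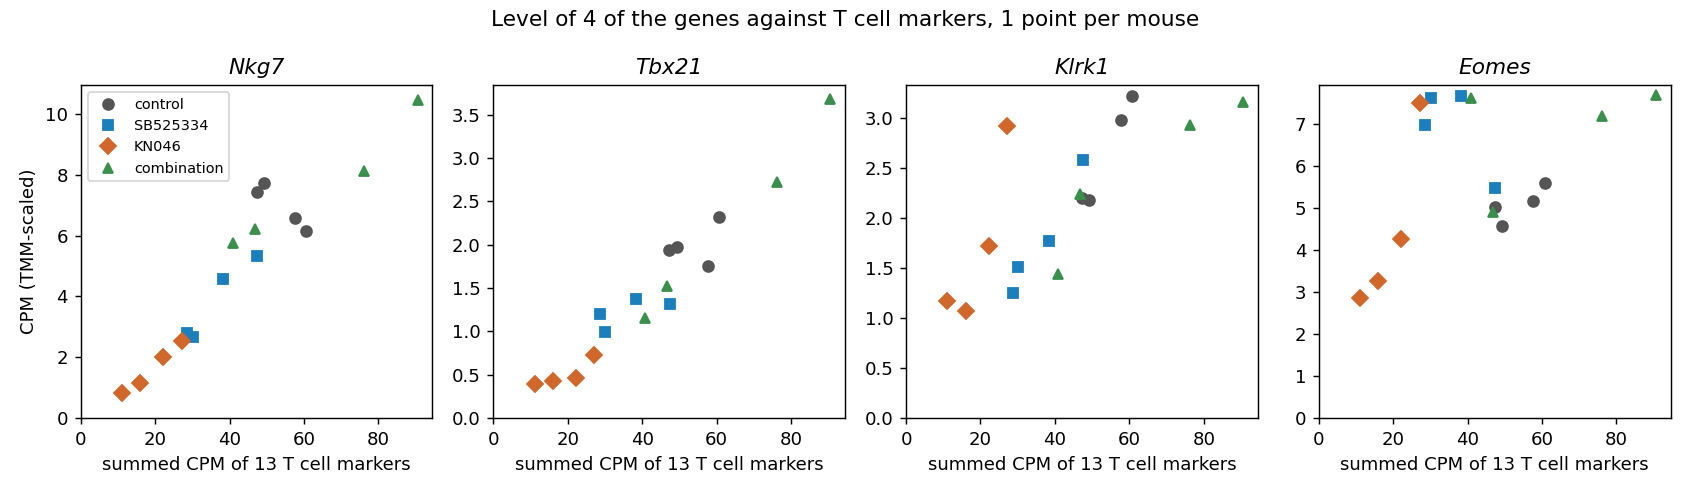
CPM of Nkg7, Tbx21, Klrk1 and Eomes (vertical axes) against the summed CPM of 13 T cell markers (horizontal axis), 1 point per mouse, shapes and colors by group. Nkg7 and Tbx21 are lowest in the KN046 mice, which have the lowest T cell sums, and Eomes is above 7 CPM at both low and high T cell sums.

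Within groups, after each group mean was removed, the members were set against Ncr1 and against the summed T cell markers over 16 mice, on the log2(CPM + 0.5) scale (19 relations, permutation p adjusted over them). Nkg7 rose with T cell markers (r = 0.884, rho = 0.897, permutation p = 0.00101 and 0.00062, adjusted p = 0.00480 and 0.00589; r = 0.799 without the 2 mice farthest on T cell markers). So did Tbx21 (r = 0.808, rho = 0.841, permutation p = 0.00155 and 0.00325, adjusted p = 0.00573 and 0.00931; r = 0.809 without those mice) and Klrk1 (r = 0.897, rho = 0.879, permutation p = 0.00017 and 0.00037, adjusted p = 0.00323 and 0.00589; r = 0.932). The relation also passed for Klre1 (r = 0.781, rho = 0.809, adjusted permutation p = 0.00573 and 0.00718, r = 0.801 without those mice), Klrb1c (r = 0.797, rho = 0.794, adjusted permutation p = 0.00480 and 0.00718, r = 0.727) and Fasl (r = 0.756, rho = 0.827, adjusted permutation p = 0.0243 and 0.00931, r = 0.661). For Ncr1 it passed by r alone (r = 0.630, rho = 0.531, adjusted permutation p = 0.0350 and 0.0969, r = 0.511 without those mice). It did not pass for Klrd1 (r = 0.605, rho = 0.609, adjusted permutation p = 0.0747 and 0.0842), Eomes (r = 0.534, adjusted permutation p = 0.166) or Klrg1 (r = 0.451, adjusted permutation p = 0.166).

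With Ncr1 in place of the T cell markers, only Klrk1 (r = 0.774, rho = 0.706, permutation p = 0.00231 and 0.00654, adjusted p = 0.00627 and 0.0155) and Klrg1 (r = 0.761, rho = 0.786, permutation p = 0.00053 and 0.00132, adjusted p = 0.00480 and 0.00718) passed. Without the 2 mice farthest on Ncr1, KN046 mouse 2 and combination mouse 4, r was 0.590 and 0.702. Nkg7 and Ncr1 gave r = 0.458 (adjusted permutation p = 0.166), which fell to 0.0503 without those 2 mice. Ncr1 rests on 0 to 12 counts per mouse, which limits any such relation. The group-centred log2 levels of the 10 members were each divided by their SD and averaged, so rare members weigh as much as Nkg7. Over the 12834 genes with a mean of at least 1 CPM, those whose group-centred pattern was most like this mean were Dok3 (r = 0.945), the B cell marker Cd22 (0.943), Ikzf1 (0.931), Ikzf3 (0.919) and Traf3ip3 (0.918), over 16 mice, given without a test.

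The wider NK machinery was read from lists of related genes, many of them not limited to NK cells. The counts below stand against the shares of all genes called in each comparison, given above. Of 29 other NK receptors, 15 were tested, and 5 fell in KN046 against control (median log2 difference -1.12, against -0.03 over all genes). Among them were Cd226, an activating receptor (-2.195, SE 0.55, adjusted p = 0.0396), Cd160 (-2.21, SE 0.59, adjusted p = 0.0462), Slamf7, an adhesion receptor (-1.56, SE 0.35, adjusted p = 0.0275), and Klrc1, which encodes NKG2A, the partner of CD94 (-1.52, SE 0.41, adjusted p = 0.0480). Cd226 and Cd160 had 24 and 21 counts over the 4 KN046 mice and entered the test through the other groups. In combination against KN046, 3 rose, Cd226 (2.00) and Klrc1 (1.57) among them, and 1 fell, the inhibitory receptor Klra6 (-1.63, adjusted p = 0.00623). Klra and Klrc genes have near-identical relatives, so their counts are uncertain. Klra8, another NK-restricted receptor, had 25 counts in all and was at 0 in 7 mice.

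Of 14 tested adaptors and kinases that carry receptor signals, 7 fell in KN046 against control and 6 rose in combination against KN046. Lat, an adaptor of T and NK cells, was at 2.91 ± 0.293 CPM in control, 0.814 ± 0.317 in KN046 and 3.59 ± 1.59 in combination mice (SD, n = 4; log2 differences -1.83 and 2.13, adjusted p = 0.0170 and 0.000210). Cd247, the zeta chain, fell by 1.68 and rose by 1.78 on the log2 scale. Ptpn6, the phosphatase of inhibitory receptors, fell by 1.202 with KN046. With SB525334 alone, 0 of 14 passed.

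Ligands followed less uniformly. Of 12 tested, 3 fell under SB525334 and 2 under KN046, and in the combination against control 2 fell and 1 rose. Fas, the receptor that Fas ligand binds, was lower in all 3 treated groups, at 3.31 ± 0.774, 3.37 ± 1.11 and 3.38 ± 1.003 CPM in SB525334, KN046 and combination mice against 8.01 ± 0.872 CPM in control (SD, n = 4; adjusted p = 0.00250, 0.0239 and 0.00282). H2-T23, which encodes the Qa-1 ligand of CD94-NKG2, fell with SB525334 (-0.85, SE 0.20, adjusted p = 0.00713). Raet1e, a ligand of NKG2D, rose in combination against control by 0.47 on the log2 scale (SE 0.12, adjusted p = 0.00870), and Cdh1, a ligand of KLRG1 that hepatocytes also express, fell by 1.11 there.

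Of 15 transcription factors of the lineage tested, 3 fell with SB525334, namely Id2 (-1.33, SE 0.24, adjusted p = 0.000638), Tox (-1.45, SE 0.40, adjusted p = 0.0253) and Nfil3 (-0.73, SE 0.21, adjusted p = 0.0303), all needed early in NK development. Of all genes, 9.22% fell there, as did 14 of 14 hepatocyte, 5 of 5 Kupffer cell and 5 of 7 neutrophil markers. Id2 and Nfil3 were at 38.3 and 26.5 CPM in control mice, against 0.338 CPM for Ncr1. Which cells supplied these transcripts was not tested. With KN046 2 others fell, against 2.4% of all genes: Irf8 (-1.003, SE 0.19, adjusted p = 0.0166) and Irf2 (-0.64, SE 0.16, adjusted p = 0.0364). In SB525334 against KN046, the test of the difference between the treatments, 4 were lower, against 13.5% of all genes. The largest difference was that of Bhlhe40 (-1.67, adjusted p = 0.00248). The others were Id2 (-1.04, adjusted p = 0.00553), Tox (-1.19, adjusted p = 0.0470) and Nfil3 (-0.86, adjusted p = 0.00791). Irf2 was higher (0.60, adjusted p = 0.0137). Irf8 did not pass there (0.46, adjusted p = 0.0930), and it was also at -0.55 in SB525334 against control (adjusted p = 0.0817).

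Of 17 killing effectors tested, 3 fell in KN046 against control, Gzmb (-2.07, SE 0.47, adjusted p = 0.0289), Prf1 (-1.46, SE 0.39, adjusted p = 0.0458) and Ccl5 (-1.34, SE 0.31, adjusted p = 0.0322), and 7 rose in combination against KN046. Gzmb, a granzyme delivered by the granules that carry NKG7, was at 10.3 ± 0.664 CPM in control, 2.44 ± 1.383 in KN046 and 16.3 ± 9.31 in combination mice (SD, n = 4). Gzmc rose in the combination over control (1.94, SE 0.42, adjusted p = 0.00352), KN046 (1.90) and SB525334 (1.70, adjusted p = 0.0244), the only gene of these lists to do so. Of 10 cytokines and receptors tested, 5 rose in combination against KN046, including Il21r (1.68), Il12rb2 (1.64) and Il2rb (1.14), the shared chain of the IL-2 and IL-15 receptors.

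Type 1 innate lymphoid cells share Ncr1 and Tbx21 with NK cells but not Eomes. Of their 7 markers, 1 fell in KN046 against control, Cxcr6 (-2.23, SE 0.51, adjusted p = 0.0286), which liver T and NK cells also carry, and it rose in combination against KN046 (2.68, SE 0.51, adjusted p = 0.000897). Itga1 fell in the combination by 0.83 on the log2 scale. Every call on these lists in KN046 against control was lost with the similar control pairs merged, since 0 genes passed there.

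**Figure D4:**
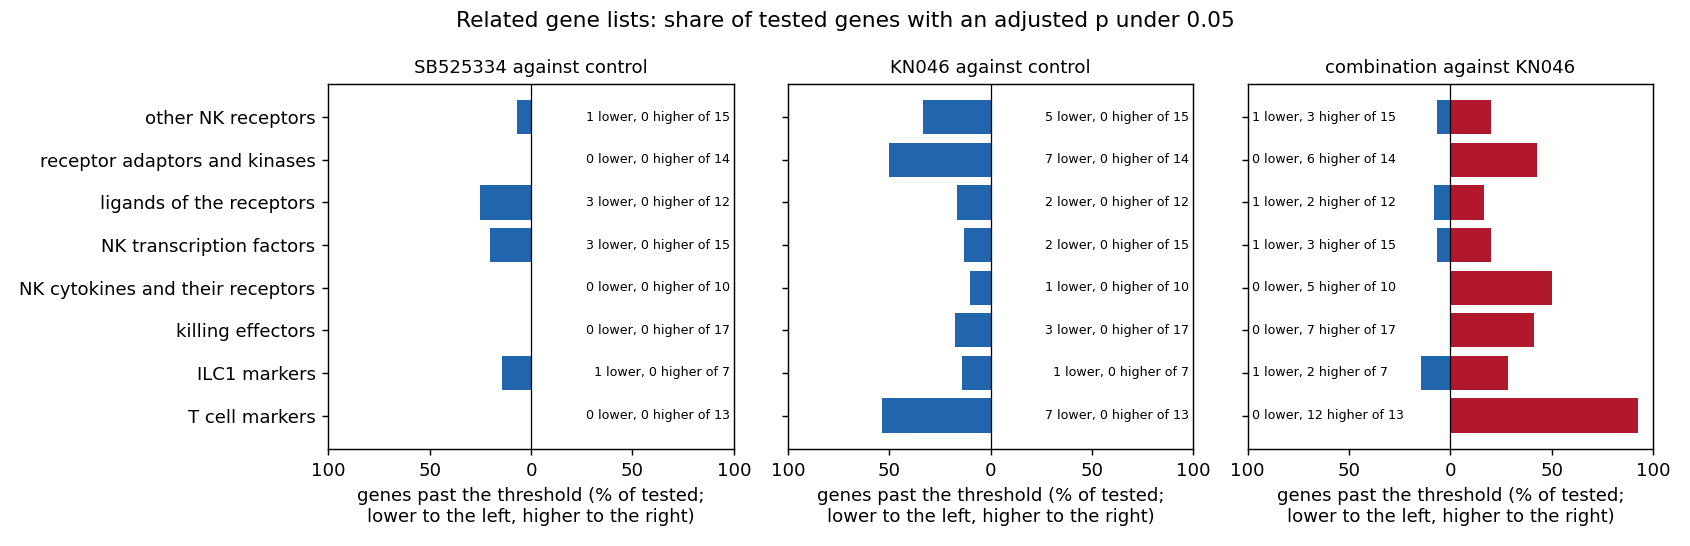
Share of tested genes with an edgeR adjusted p under 0.05 in 8 gene lists, in 3 comparisons; bars to the left are genes lower and to the right genes higher in the first group named, with the counts printed. T cell markers have the largest share in combination against KN046, 12 of 13.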

How the data were processed

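Total RNA of the tumors of 16 mice, 4 per group, was sequenced as mRNA libraries on an Illumina HiSeq instrument. The authors used cutadapt 2.7 for trimming, HISAT2 2.2.1 for alignment to GRCm39 and HTSeq 2.0.4 for counts per gene. The strand and multiple-mapping settings are not given in the sources used here, so close paralogs and overlapping genes are uncertain. They deposited raw counts, and normalized values used here as a score, which equal the count over a DESeq2 1.38.3 size factor, rounded. Counts were 18368994 to 23877131 per mouse. Symbols, coordinates and exon lengths came from GENCODE on GRCm39, which held 21770 of the 21959 identifiers.

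Counts were fitted in R 4.3.3 with edgeR 4.0.16 (TMM, filterByExpr with a minimum count of 10, quasi-likelihood test, 16 mice in 1 fit) and adjusted by Benjamini-Hochberg over 13968 genes, threshold 0.05. Standard errors are the log2 difference over the square root of F. Alternatives were DESeq2 1.42.0, limma 3.58.1 on the normalized values, other scalings and filters, only the groups compared, a replicate block, merged control pairs and each mouse left out. Genes below the filter had exact permutation tests (SciPy 1.17.1). On simulated counts with 200 genes changed 4-fold between KN046 and control among 13845, edgeR called 200 and 7 unchanged ones, and DESeq2 200 and 18. The changed genes were drawn from well-counted genes only, with a single fixed spread and no other difference between groups. The simulation therefore does not show how often genes as rare as Klre1, Tbx21 or Fasl in KN046 mice would be called. Nothing states that the mice came from separate cages or batches, so p values measure the spread between these mice. The members and lists were chosen with earlier results of these data known. From each list of related genes, up to 3 genes per comparison were named, those past the threshold with the largest log2 difference and a mean of at least 0.5 CPM in the higher group. Not every gene that met this rule is printed. Klrc1 in the KN046 comparison and Klra8 were added after their values were seen. Outside the rule are also Nfil3, Irf2 and Irf8 in SB525334 against KN046, and Irf8 in SB525334 against control.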

Additional observations from a re-analysis of the deposited data

Results flagged for a closer look

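Ncr1 in KN046 mouse 2, at 0.486 CPM, stood far from the other 3 KN046 mice, which held 0 to 1 count. Of 40 groups of 4 mice checked in this way, 2 would stand out by chance alone.

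The SB525334 effect on 4 genes differed with and without KN046 by the interaction test, with log2 values of 3.07 for Nkg7, 2.86 for Tbx21, 3.40 for Klre1 and 2.05 for Klrd1 (edgeR adjusted p = 0.000508, 0.00237, 0.0100 and 0.0281). The T cell markers moved in the same way in 10 of 13 cases, and their part was not tested.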

How the results depend on the processing

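Of the 10 genes, the number lower in SB525334 against control was 1, became 2 by DESeq2 and with only the groups compared, 0 with control pairs merged, and 0 to 1 when each mouse was left out. Over all genes, the number lower was 1288, then 1430, 1442 and 1023 in those settings, and 1124 to 1259 with a mouse left out. In KN046 against control the 3 became 4 by DESeq2, 2 under a filter of a mean of 1 CPM and with only the groups compared, 0 with the pairs merged, and 1 to 4 with a mouse left out. The number of all genes lower moved widely too. It was 335 in the main fit, 655 by DESeq2, 316 under that filter and 63 with only the groups compared. With the pairs merged it was 0, and with a mouse left out 11 to 1173. In combination against KN046 the 4 became 2 under a filter of a mean of 1 CPM, which tests fewer members, 3 with only the groups compared, 5 with the replicate block, and 3 to 6 with a mouse left out. Of all genes, 1381 were higher in the main fit, and 1364, 508 and 1520 in those settings. With a mouse left out the number ran from 759 to 1895. In combination against SB525334 the 0 became 1 by DESeq2, while the calls over all genes went from 76 higher and 423 lower to 137 and 520. In SB525334 against KN046 the 2 became 1 with only the groups compared, 3 with the replicate block, and 0 to 4 with a mouse left out. The number of all genes higher there went from 905 to 470 and 1077 in those settings. With a mouse left out it ran from 436 to 1422. In combination against control the Fasl difference near 0 turned to -0.0811 with the replicate block and -0.0674 by limma, and with a mouse left out ran from -0.13 to 0.27; those of Klrk1, Klre1, Tbx21 and Nkg7 ran from -0.254 to 0.0803, -0.216 to 0.0664, -0.133 to 0.419 and -0.0449 to 0.261. Without the 2 mice farthest on Ncr1, the correlations with Ncr1 turned to -0.23 for Klrd1, -0.0241 for Eomes and -0.10 for Tbx21.

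Pairing by replicate number was looked for in the correlation of deviations. Over 24 same-numbered pairs of mice its median was 0.0106, and 7 of 24 were above 0.1. Over 72 different-numbered pairs the median was -0.0076, and 15 were above 0.1. Of 16 mice, 6 correlated best with their own number. These values do not show a pairing and cannot exclude one. Counts at this depth limit Ncr1, Klrb1c and Klrg1, and Klre1 in KN046 mice; the cause of the changes above was otherwise not tested.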

Other observations

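Of 8 B cell markers, 0 passed in KN046 against control, and 2 rose in the combination against control and 4 against SB525334, with a summed level of 4.04 to 69.5 CPM over the combination mice and 5.93 to 11.0 CPM over the control mice. Neutrophil markers fell with SB525334 (5 of 7, median log2 difference -4.71). With KN046 0 of 7 passed, though all 7 were below 0 (median -1.58). Their summed level was 154 to 177 CPM in control and 68.7 to 96.8 CPM in SB525334 mice. It was 48.2 to 102 CPM in KN046 and 78.2 to 194 CPM in combination mice. Of 8 macrophage markers, 0 passed with either agent alone against control. In the combination, 1 fell against control, and 4 rose and 1 fell against KN046, while 3 rose and 1 fell in SB525334 against KN046. Kupffer cell markers fell in 5 of 5 cases with SB525334 and with the combination.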
